A study of Mus musculus with 2 samples.

Results

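A set of 10 genes of the lymphocyte actin machinery, read by 26 probes, was followed through 2 two-colour microarrays of sorted mouse regulatory T cells (Tregs) lacking Bcl11b, a DNA-binding regulator of T cell development. The genes were Dock2, Dock8, Dock10, Dock11, Was, Wipf1, Coro1a, Rac2, Rhoh and Arhgdib, and their probes were all gene probes carrying one of these names, 26 of 41174 probes and 10 of 28090 gene names on the array. The genes were picked because Dock8 was low in the deficient pool on both arrays, so the values below describe these arrays and no test was made.

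Both arrays set RNA of a Bcl11b-deficient pool, labelled with Cy5, against RNA of a wild-type pool, labelled with Cy3, all from C57BL/6 mice. On the Cd4Cre array the deficient cells were Foxp3-GFP+ Tregs sorted from Bcl11bF/F Cd4Cre Foxp3-GFP+ mice, in which floxed Bcl11b is deleted by a Cre driven from Cd4, and the control was Foxp3-GFP+ Tregs of wild-type mice. On the Foxp3Cre array the deficient Tregs came from Bcl11bF/F Foxp3Cre mice, in which Cre is driven from Foxp3, and the control was wild-type Tregs. The label of the second array does not name its Cre; the series' design text gives 2 pairs of samples, and the GFP sort assigns the first array to Cd4Cre. Each wild-type pool held cells of 3 mice, while the number of mice in the deficient pools, the ages and the Cre status of the controls are not given in the sources used here. With 1 array per Cre system and the same dye on the deficient pool of both, there is no replicate check, and a dye bias would run the same way on both arrays. A ratio is the log2 of deficient over wild type after background correction and loess normalisation, its error (SE) is the scanner software's error for that spot, and a level is the log2 signal of one channel, which can be compared within a probe only. Below, "with Cd4Cre" and "with Foxp3Cre" name the array of that Cre system.

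DOCK proteins are guanine nucleotide exchange factors that load small GTPases such as Rac and Cdc42 with GTP. Dock2 acts on Rac, while Dock8, Dock10 and Dock11 act mainly on Cdc42, and loss of DOCK8 or DOCK2 causes immunodeficiency in humans. Active Cdc42 opens the Wiskott-Aldrich syndrome protein, encoded by Was, which then starts branched actin through the Arp2/3 complex; in T cells these proteins shape migration, the immune synapse and Treg function.

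The targeted gene and the cell type markers differed between the arrays. The Bcl11b probes read ratios of -2.46 and -1.19 with Cd4Cre and -1.82 and -0.32 with Foxp3Cre; the position of these probes relative to the floxed part was not analysed here. Foxp3, which defines Tregs, read -3.57 with Cd4Cre and -0.20 with Foxp3Cre, and its Cd4Cre level was 8.93 in the deficient pool against 12.50 in the wild-type pool, so the deficient pool of the Cd4Cre array goes against its label on this marker. All 6 Treg markers were detected, with a summed linear level of 67345 in the deficient pool against 231287 in the wild-type pool with Cd4Cre and of 86814 against 85378 with Foxp3Cre. The near-equal sums with Foxp3Cre hide markers that went both ways. Besides Foxp3, Ctla4 read 1.22 there, Ikzf2 0.62 and Tnfrsf18 0.15, while Il2ra read -0.37 and Gpr83 -0.94. The 4 NK cell markers summed to 242511 in the deficient pool against 17215 in the wild-type pool with Cd4Cre and to 39677 against 30899 with Foxp3Cre. The 8 myeloid markers summed to 466495 against 43166 with Cd4Cre and to 254191 against 145222 with Foxp3Cre. Of these 8, 6 read past 2-fold higher and 2 past 2-fold lower with Cd4Cre, and 4 higher and 1 lower with Foxp3Cre. S100a9, a neutrophil calprotectin subunit, read 7.02 and 2.25, while Csf1r, the receptor of monocytes and macrophages, read -1.50 and -1.20, and Cd14 -1.05 and 0.52. The 2 CD8 T cell markers summed to 63074 against 25891 with Cd4Cre and to 56780 against 56026 with Foxp3Cre, and the B cell markers, 4 of 5 detected and Pax5 not, to 63118 against 22469 and to 69766 against 69823. The 5 general T cell markers summed to 267965 against 482372 and to 290316 against 352341, with list medians of -0.93 and -0.05. With Foxp3Cre, Cd5 read -1.25, Cd4 -0.52 and Cd3e -0.05, while Cd3d read 0.23 and Cd3g 0.33. Such sums weigh the brightest probes most. These shifts go with every Cd4Cre ratio below, and to a smaller size with the Foxp3Cre ratios; their part in the results was not tested. In such bulk RNA, fewer cells of a type and less RNA per cell cannot be told apart.

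The design holds 8 probes for Dock8, numbered here from the 5′ end of the gene, 3 each for Dock10 and Dock11, 2 each for Dock2, Was, Wipf1, Coro1a and Rac2, and 1 each for Rhoh and Arhgdib. Of the 26 probes, 18 are annotated in the files to transcript models and 8 to cDNA clones: 5 of Dock8, 2 of Dock10 and 1 of Dock11. The following 60-base probes are some of those that disagreed within a gene, without Dock8 probe 3 and the Dock10 probes. They are printed in the sense of the gene, with every TAA, TAG or TGA triplet in capitals. The first 4 belong to Dock8 on the plus strand of mouse chromosome 19 (mm9), at chr19:25140044-25140103, chr19:25175586-25175645, chr19:25197706-25201591 and chr19:25231608-25231667, and the last 2 to Dock11 on the plus strand of chromosome X, at chrX:33523539-33523598 and chrX:33608387-33609863.
Dock8 probe 1, clone: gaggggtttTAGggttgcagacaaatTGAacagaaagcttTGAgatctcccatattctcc
Dock8 probe 2, clone: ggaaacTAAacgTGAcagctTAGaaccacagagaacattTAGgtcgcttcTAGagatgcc
Dock8 probe 4, transcript model: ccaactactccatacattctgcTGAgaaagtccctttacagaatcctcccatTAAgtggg
Dock8 probe 6, clone: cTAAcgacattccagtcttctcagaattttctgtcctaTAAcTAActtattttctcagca
Dock11 probe 1, clone: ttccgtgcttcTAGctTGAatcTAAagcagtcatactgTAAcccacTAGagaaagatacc
Dock11 probe 2, transcript model: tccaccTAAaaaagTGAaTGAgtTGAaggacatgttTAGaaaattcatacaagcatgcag
Dock8 probes 1 and 6 hold a capital triplet in each of the 3 reading frames and so cannot be read through as protein in any frame. Dock8 probe 2 leaves 1 frame free of these triplets and Dock8 probe 4 leaves 2 frames free. Of all 41174 gene probes, 21.7% have no frame free, 16.5% of the 26346 annotated to transcript models and 37.7% of the 9445 annotated to cDNA clones, so the feature is common on the design. Dock8 probe 4 spans 3886 bases of the genome and Dock11 probe 2 spans 1477 bases with 60 bases of probe, so each crosses a gap as a spliced RNA does. Both Dock2 probes do so too, over 1130 and 1121 bases; of the 18 transcript-model probes these 4 span a gap, and none of the 8 clone probes does. Whether the clone probes lie in exons, introns or UTRs was not analysed here. No probe of another gene name shares a run of 20 bases with any of the 26, and the longest run shared between 2 of them is 15 bases.

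**Figure D1:**
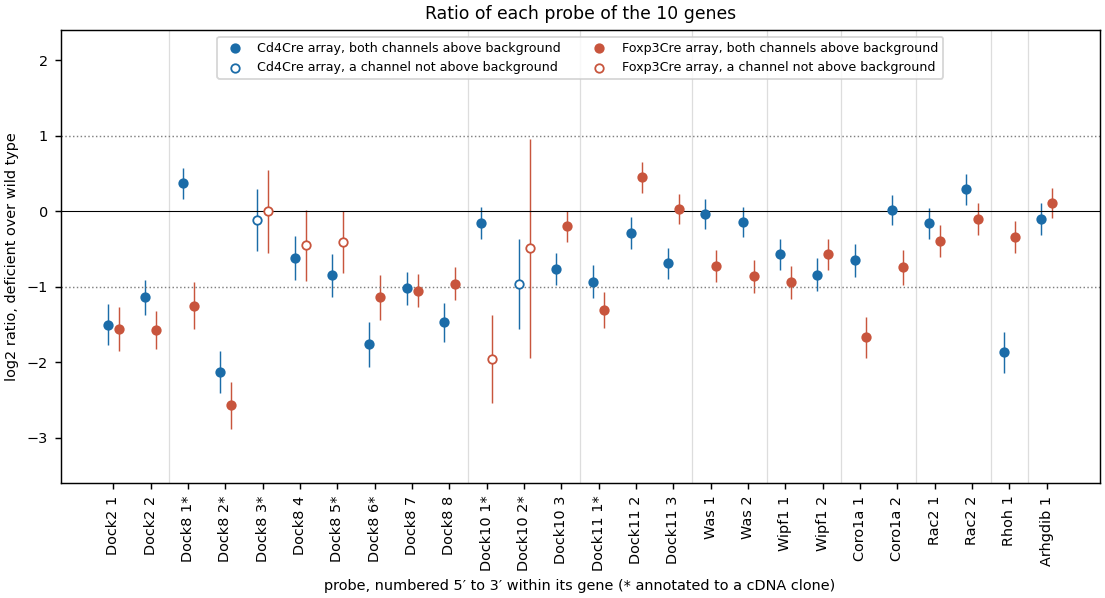
Log2 ratio (deficient over wild type) of each of the 26 probes on the Cd4Cre and the Foxp3Cre array, with bars for the scanner software's error, open symbols where a channel was not above background and a star for probes annotated to a cDNA clone. Both Dock2 probes and Dock8 probes 2, 6 and 7 lie at or beyond -1 on both arrays, while Rac2 and Arhgdib lie near 0.

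On the Cd4Cre array, 7 of the 26 probes, from 3 genes, were past 2-fold lower in the deficient pool, where 9.98% of the 23649 detected probes were, and 0 were past 2-fold higher, where 10.4% were. The 7 were both Dock2 probes, 4 Dock8 probes and the Rhoh probe. On the Foxp3Cre array, 9 of 25 detected probes, from 5 genes, were past 2-fold lower, against 11.7% of 22397, and 0 higher, against 3.02%. These were both Dock2 probes, 4 Dock8 probes and 1 each of Dock10, Dock11 and Coro1a, the Dock10 probe by a measured ratio where the signal gives only a bound. Past 2-fold lower on both arrays were 5 of the 25 probes detected on both, 2 of Dock2 and 3 of Dock8, against 4.33% of 21269, and 0 were past 2-fold higher on both, against 1.23%. Below 0 were 23 of 26 probes on the Cd4Cre array, beside 52.9% of all, 21 of 25 on the Foxp3Cre array, beside 54.8%, and 18 of 25 on both, beside 37.7%. Because the genes were chosen for low values in this contrast, nothing is read from these counts. The probes' median ratio was -0.67 with Cd4Cre and -0.74 with Foxp3Cre, beside -0.05 and -0.09 over all detected probes. With each array's ratios centred on the median instead of loess, the medians were -0.27 and -0.24, beside 0.02 and 0.11 over all. Relative to centring, loess moved the brightest 10% of detected probes by a median of -0.84 with Cd4Cre and of -0.93 with Foxp3Cre. The median ratio of all detected probes shifted by -0.07 and -0.20. Most members are bright, so centred ratios are also given below.

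Dock2, the Rac exchange factor of lymphocyte migration, read lower in the deficient pool on both arrays with both of its probes. Its first probe had a level of 9.31 in the deficient pool against 10.81 in the wild-type pool with Cd4Cre and of 8.38 against 9.94 with Foxp3Cre. The ratios were -1.50 ± 0.27 (SE), or 2.83-fold lower, with Cd4Cre and -1.56 ± 0.29, or 2.95-fold lower, with Foxp3Cre. The second probe, 2.1 kb further 3′, had a level of 12.18 against 13.32 with Cd4Cre and of 10.22 against 11.79 with Foxp3Cre. It read -1.14 ± 0.23, 2.20-fold lower, and -1.57 ± 0.25, 2.98-fold lower. The 2 probes thus differed by 0.36 with Cd4Cre and by 0.01 with Foxp3Cre, beside scanner errors between 0.23 and 0.29. Centring gave -1.56 and -0.82 with Cd4Cre and -1.57 and -1.39 with Foxp3Cre, so the second probe lost 2-fold on the Cd4Cre array under centring; by the scanner software's ratio it read -1.14 there. Both probes lie on the minus strand of chromosome 11, at chr11:34131691-34132820 and chr11:34129586-34130706 (mm9).

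Dock8, the Cdc42 exchange factor whose loss in humans leaves T cells that break apart as they migrate through dense tissue, gave ratios that differed between probes by more than their errors, although on the Foxp3Cre array probes 1, 6, 7 and 8 lay between -1.25 and -0.96. Its brightest probe, probe 2, which the files annotate to a RIKEN cDNA clone that RefSeq lists as a Dock8 synonym, had a level of 13.19 in the deficient pool against 15.31 in the wild-type pool with Cd4Cre and of 11.27 against 13.84 with Foxp3Cre. It read -2.13 ± 0.28 (SE), 4.36-fold lower, and -2.57 ± 0.31, 5.92-fold lower, with loess the lowest measured ratio of the 26 probes on both arrays. Under centring it read -1.46 and -2.16, and on the Cd4Cre array Dock8 probe 6 at -1.86, Dock2 probe 1 at -1.56 and Dock8 probe 8 at -1.47 then lay below it. By the scanner software's ratio it read -2.04 and -2.47, above Dock8 probe 6 at -2.30 and Dock10 probe 2 at -3.00 with Cd4Cre, and above Dock10 probe 1 at -3.10 with Foxp3Cre.

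The 3 Dock8 probes annotated to the transcript model read lower by less. Probe 4, which crosses a gap of the genome, had a level of 8.20 in the deficient pool against 8.81 in the wild-type pool with Cd4Cre and of 7.75 against 8.19 with Foxp3Cre, with ratios of -0.62 ± 0.29 and -0.45 ± 0.47. On the Foxp3Cre array it was not well above background in the deficient pool, which bounds the difference to at least 1.17-fold lower. Probes 7 and 8 are the probes nearest the 3′ end, 135.6 and 135.9 kb from probe 1. Probe 7 had levels of 12.89 against 13.91 with Cd4Cre and of 11.78 against 12.83 with Foxp3Cre, and read -1.02 ± 0.22 and -1.05 ± 0.22. Probe 8 had levels of 9.92 against 11.39 and of 10.02 against 10.98, and read -1.47 ± 0.26 and -0.96 ± 0.22. The 3′ probes therefore read between 1.94-fold and 2.77-fold lower over the 2 arrays. Under centring probe 7 read -0.57 with Cd4Cre and -0.68 with Foxp3Cre, and probe 8 read -1.47 and -0.84, so only probe 8 on the Cd4Cre array stayed past 2-fold.

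The other 4 clone probes of Dock8 ranged from higher to clearly lower in the deficient pool. Probe 1, the most 5′, had levels of 10.16 in the deficient pool against 9.79 in the wild-type pool with Cd4Cre and of 8.22 against 9.47 with Foxp3Cre. It read 0.37 ± 0.21 with Cd4Cre and -1.25 ± 0.31 with Foxp3Cre, the only Dock8 probe above 0 by more than its error on either array. Probe 6 had levels of 8.83 against 10.59 and of 8.18 against 9.32, and read -1.76 ± 0.30, 3.39-fold lower, and -1.14 ± 0.30, 2.21-fold lower. Probe 5, at chr19:25222001-25222060, read -0.85 ± 0.29 on the Cd4Cre array, with levels of 8.20 against 9.05. On the Foxp3Cre array probe 5 was not well above background in the deficient pool. Its 1.33-fold lower value there is the measured ratio, -0.41 ± 0.41, and is no larger than its error. Probe 3, at chr19:25176933-25176992, the next probe after probe 2, had levels of 7.92 against 8.03 and of 7.83 against 7.83. It was not well above background in either deficient pool, which leaves 1.08-fold lower with Cd4Cre and no bound with Foxp3Cre. The Cd4Cre value is the measured ratio, -0.11 ± 0.41, and lies within its error. Levels of probe 3 lay near the floor of the measurement in all 4 channels.

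**Figure D2:**
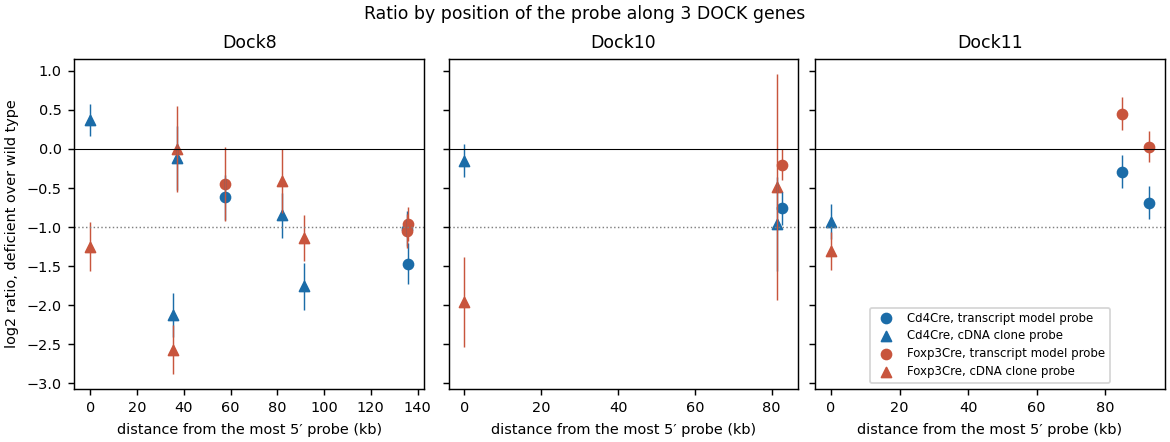
Log2 ratio (deficient over wild type) of the probes of Dock8, Dock10 and Dock11 against distance in kb from the most 5′ probe of the gene, for each array, with the scanner software's error; triangles are clone probes and circles transcript-model probes. The Dock8 ratios follow no single line along the gene: with these loess ratios probe 2 at 35.5 kb is lowest on both arrays. The pair at 135.6 and 135.9 kb reads -1.02 and -1.47 with Cd4Cre and -1.05 and -0.96 with Foxp3Cre.

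The Dock8 probes spanned 2.50 log2 units with Cd4Cre and 2.57 with Foxp3Cre. Among genes with at least 6 detected probes it ranked 3 of 33 from the top with Cd4Cre and 2 of 26 with Foxp3Cre, where the median was 1.45 and 1.36; over all genes with at least 2 detected probes the median range was 0.48 (5403 genes) and 0.39 (5055 genes). Restricted to probes well above background in both channels, the Dock8 range on the Foxp3Cre array was 1.61, without probes 3, 4 and 5. The scanner errors of these probes ran from 0.21 to 0.55. Grouped by annotation, the 5 clone probes had a median of -0.85 and the 3 transcript-model probes of -1.02 with Cd4Cre and of -1.14 and -0.96 with Foxp3Cre, so the spread of Dock8 lay within the clone probes rather than between the 2 kinds.

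Dock10, a Cdc42 exchange factor of the zizimin family found in lymphocytes, was less than 2-fold lower on both arrays by its brightest probe. Its brightest probe, probe 3 on the minus strand at chr1:80498033-80498092, is annotated to a transcript model and had levels of 13.82 in the deficient pool against 14.59 in the wild-type pool with Cd4Cre and of 13.86 against 14.07 with Foxp3Cre. It read -0.76 ± 0.21 (SE) and -0.20 ± 0.20, and under centring -0.11 and 0.48, so its direction on the Foxp3Cre array turns with the scaling. Clone probe 1, at chr1:80580750-80580809, read -0.15 ± 0.21 on the Cd4Cre array, with levels of 9.44 against 9.59. On the Foxp3Cre array its measured ratio was -1.96 ± 0.58, with levels of 6.83 against 8.79, but it was not well above background in the deficient pool and is only bounded to at least 1.76-fold lower. Clone probe 2, at chr1:80499227-80499286 and 81.5 kb from probe 1, was at least 1.32-fold lower on the Cd4Cre array and was not detected in either pool of the Foxp3Cre array.

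Dock11, the X-linked zizimin family member, was split between its probes on the Foxp3Cre array. Clone probe 1 had levels of 11.50 in the deficient pool against 12.43 in the wild-type pool with Cd4Cre and of 9.65 against 10.96 with Foxp3Cre, with ratios of -0.93 ± 0.22 (SE) and -1.31 ± 0.24. Probe 2, which crosses a gap of the genome, had levels of 10.49 against 10.78 and of 12.43 against 11.99, and read -0.29 ± 0.21 and 0.45 ± 0.21. Probe 3, the brightest, at chrX:33616216-33616275, had levels of 13.70 against 14.38 and of 14.45 against 14.42, and read -0.69 ± 0.21 and 0.03 ± 0.20. The 2 transcript-model probes were thus at or above 0 on the Foxp3Cre array, where the clone probe 84.8 kb upstream was 2.48-fold lower. Centring put probes 2 and 3 at 0.80 and 0.82 on the Foxp3Cre array and left probe 3 at -0.08 on the Cd4Cre array. All 3 probes were well above background in both channels of both arrays.

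Within a gene, the median of clone probes minus that of transcript-model probes can be set beside the same quantity over the array. Over all genes with both kinds detected, the median of this difference was -0.14 on the Cd4Cre array (1372 genes, quartiles -0.64 and 0.34) and -0.23 on the Foxp3Cre array (1253 genes, quartiles -0.86 and 0.25). Dock8 gave 0.17 and -0.18, inside the quartiles on both. Dock10 gave 0.21 and -1.76 and Dock11 gave -0.44 and -1.55, so on the Foxp3Cre array both lay below the lower quartile, with 4.6% of genes more negative than Dock10 and 7.6% more negative than Dock11. On the Cd4Cre array the signs of Dock8 and Dock10 turned with the processing: centring gave -0.23 and -0.54 and the scanner software's ratio gave -0.35 and -0.91. Where signal was required in both channels, Dock8 was -0.28 and Dock10 0.62 with loess. Dock10 then read -0.14 with centring and 0.47 with the scanner software's ratio. That requirement left out Dock10 probe 2, which was not well above background in the deficient pool. The Dock10 value with Foxp3Cre rests on the probe that has only a bound. Centring gave -2.49 for Dock10 and -2.02 for Dock11 there, and the scanner software's ratio -2.99 and -1.68. A clone probe was the brightest in 581 of 2816 gene names with both kinds (20.6%), as it was for Dock8.

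**Figure D3:**
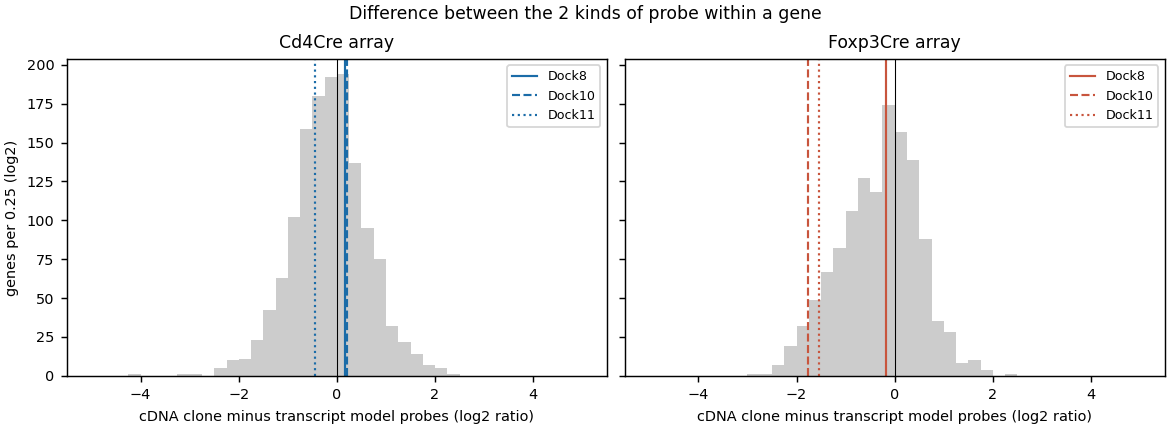
Histogram over genes of the median log2 ratio of clone probes minus that of transcript-model probes, for the Cd4Cre and the Foxp3Cre array, with vertical lines for Dock8, Dock10 and Dock11. Dock8 lies near the centre on both arrays, and Dock10 and Dock11 lie in the lower tail on the Foxp3Cre array.

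Was, which encodes the actin nucleation promoting factor that is lost in Wiskott-Aldrich syndrome, read close to 0 with Cd4Cre and lower in the deficient pool with Foxp3Cre. Its first probe, at chrX:7658842-7658901, had levels of 14.36 in the deficient pool against 14.39 in the wild-type pool with Cd4Cre and of 13.47 against 14.19 with Foxp3Cre, with ratios of -0.04 ± 0.20 (SE) and -0.72 ± 0.21. Its second probe, at chrX:7658779-7658838, had levels of 15.69 against 15.84 and of 14.73 against 15.58, with ratios of -0.14 ± 0.20 and -0.86 ± 0.22. The probes were 0.11 and 0.14 apart. Centring gave 0.66 and 0.87 with Cd4Cre and -0.07 and 0.12 with Foxp3Cre, so the direction of Was turned with the scaling in 3 of 4 values.

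Wipf1, whose product WIP binds WASP and protects it from degradation, read lower in the deficient pool on both arrays, by less than 2-fold. Probe 1, at chr2:73269155-73269214, had levels of 14.66 in the deficient pool against 15.22 in the wild-type pool with Cd4Cre and of 13.59 against 14.53 with Foxp3Cre, and read -0.57 ± 0.21 (SE) and -0.94 ± 0.22. Probe 2, at chr2:73267829-73267888, had levels of 13.39 against 14.23 and of 13.43 against 14.00, and read -0.84 ± 0.22 and -0.57 ± 0.21. Under centring the 4 values were 0.26 and -0.29 with Cd4Cre and -0.24 and 0.06 with Foxp3Cre, with the sign of probe 1 turned on the first and that of probe 2 on the second.

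Coro1a, the lymphocyte coronin that binds filamentous actin, read lowest on the Foxp3Cre array with its more 5′ probe. Probe 1, at chr7:133844338-133844397, had levels of 16.62 in the deficient pool against 17.27 in the wild-type pool with Cd4Cre and of 15.78 against 17.44 with Foxp3Cre, and read -0.65 ± 0.22 (SE) and -1.67 ± 0.27. Probe 2, 0.9 kb further 3′ at chr7:133843425-133843484, had levels of 17.24 against 17.23 and of 16.54 against 17.29, and read 0.02 ± 0.20 and -0.74 ± 0.23. On each array probe 1 was lower than probe 2, by 0.67 and by 0.92. Centring gave 0.71 and 1.49 with Cd4Cre and -0.36 and 0.62 with Foxp3Cre, so only probe 1 on the Foxp3Cre array stayed below 0.

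Among the small GTPases and their regulators, Rac2, the Rac of blood cells, read near 0 on both arrays. Its probe 1, at chr15:78391545-78391604, had levels of 16.69 in the deficient pool against 16.85 in the wild-type pool with Cd4Cre and of 16.10 against 16.49 with Foxp3Cre, and read -0.16 ± 0.21 (SE) and -0.39 ± 0.21. Its probe 2, at chr15:78391452-78391511, had levels of 16.88 against 16.60 and of 16.71 against 16.81, and read 0.29 ± 0.20 and -0.10 ± 0.21. Under centring all 4 Rac2 values were above 0, at 1.16 and 1.60 with Cd4Cre and 0.84 and 1.22 with Foxp3Cre.

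Rhoh, a GTPase-deficient small G protein that takes part in T cell receptor signalling, was past 2-fold lower in the deficient pool on the Cd4Cre array. Its probe, at chr5:66284449-66284508, had a level of 14.02 in the deficient pool against 15.88 in the wild-type pool with Cd4Cre and of 15.47 against 15.82 with Foxp3Cre. It read -1.87 ± 0.27 (SE), 3.65-fold lower, with Cd4Cre and -0.34 ± 0.21 with Foxp3Cre; the difference between arrays was not tested. Centring gave -1.04 and 0.75, so the Cd4Cre value kept its side of 2-fold and the Foxp3Cre value turned. Arhgdib, the haematopoietic inhibitor that keeps small GTPases such as Rac in the GDP form, read -0.10 ± 0.21 with Cd4Cre and 0.11 ± 0.20 with Foxp3Cre. Its levels, at chr6:136872241-136872300, were 16.51 in the deficient pool against 16.61 in the wild-type pool and 16.73 against 16.61, and under centring it read 1.15 and 1.42.

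**Figure D4:**
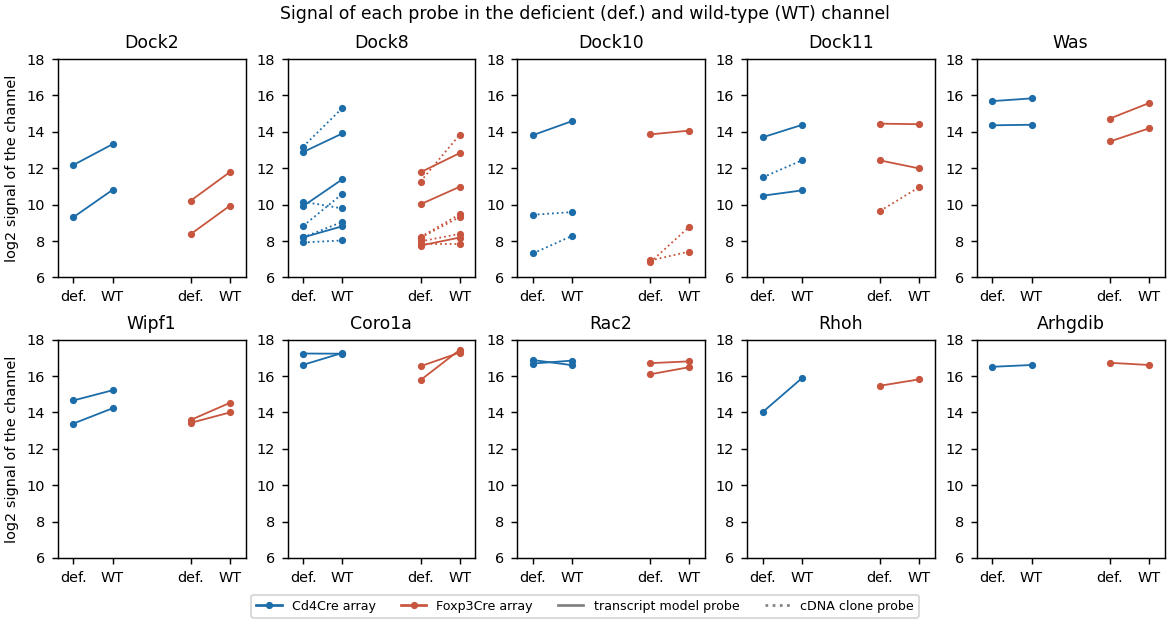
Log2 level of each of the 26 probes in the deficient pool and the wild-type pool of each array, joined by a solid line for a transcript-model probe and a dotted line for a clone probe. The pools lie apart for Dock2 and Dock8 probe 2 on both arrays and for Rhoh on the Cd4Cre array; levels of different probes are not comparable.

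**Figure D5:**
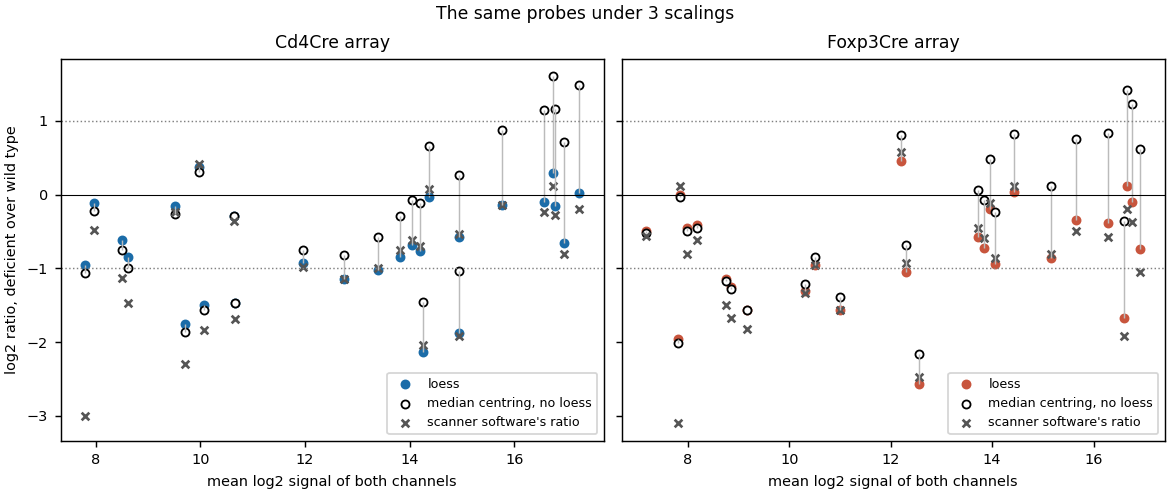
Log2 ratio (deficient over wild type) of each of the 26 probes against the mean log2 signal of both channels, after loess, after median centring and as the scanner software gave it, for each array. The gap between loess and centring grows with signal: the probes of Rac2 and Arhgdib, at levels above 16, read between 0.84 and 1.60 under centring, while the dim probes hardly move.

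The wider pathway was read from 4 lists that leave out the 10 members and hold 104 genes with a probe, each gene by its brightest probe. "Lower" and "higher" here mean past 2-fold. Of the 96 detected on the Cd4Cre array, 18 read lower and 5 higher, beside 10.6% and 11.4% of 15919 gene names. Of the 96 detected on the Foxp3Cre array, 30 read lower and 2 higher, beside 11.5% and 2.94% of 15239. The list medians were -0.29 and -0.45. Under centring 10 read lower and 20 higher with Cd4Cre and 8 lower and 15 higher with Foxp3Cre, with medians of 0.24 and 0.03. By the scanner software's ratio 21 read lower and 7 higher with Cd4Cre, and 27 lower and 2 higher with Foxp3Cre. More list genes thus read lower than higher with loess and the scanner software's ratio, and fewer with centring. Among all probes past 2-fold, the share that was higher also moved with the scaling. It was 51.0% with loess, 64.6% with centring and 43.3% with the scanner ratio on the Cd4Cre array, and 20.5%, 60.7% and 35.4% on the Foxp3Cre array. The lists were chosen with earlier results of these data known, so nothing is read from these counts. Shares over all gene names were computed with loess only, so none stands beside the counts of the other scalings.

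Of the other DOCK and ELMO genes, 2 of 9 read lower and 1 higher with Cd4Cre and 0 of 8 in either direction with Foxp3Cre. Their lowest mean over the arrays was that of Dock9, a zizimin family Cdc42 exchange factor, at -1.09. Dock9 read -1.77 with Cd4Cre and -0.41 with Foxp3Cre, and its other probe -0.85 and -0.10. Of the WASP, WAVE and Arp2/3 genes, 1 of 23 read lower with Cd4Cre and 3 of 22 with Foxp3Cre, with 0 higher on either array. Wasf2, a WAVE protein that relays Rac to Arp2/3, was the one past 2-fold on both arrays, at -1.12 and -1.26 with a clone probe, while another of its probes read 0.38 on the Cd4Cre array. The highest mean in that list was that of Actr3, a core Arp2/3 subunit, at 0.59.

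Of the coronins and filament proteins, 5 of 31 read lower and 3 higher with Cd4Cre and 12 of 32 lower and 2 higher with Foxp3Cre. Lower on both were Flna, the actin cross-linker filamin A, at -1.60 and -1.40, Evl, an Ena/VASP protein, at -1.21 and -1.36, and Myo9b, a myosin with a GTPase-activating domain, at -1.35 and -1.16. Higher on both were Tmsb4x, which encodes the actin monomer binding thymosin beta 4, at 1.47 and 1.59, and Pls3, an actin bundling plastin, at 1.29 and 1.28.

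Of the small GTPases, exchange factors and inhibitors, 10 of 33 read lower and 1 higher with Cd4Cre and 15 of 34 lower and 0 higher with Foxp3Cre. The 8 lower on both included Hmha1, a GTPase-activating protein of blood cells, at -1.97 and -1.88, the lowest mean of the list at -1.92. Arhgef1, a RhoA exchange factor of lymphocytes, read -2.08 and -1.62, Arhgap4, a GTPase-activating protein, -2.12 and -1.34, and Arhgef7, which forms a complex with Git2, -1.84 and -1.33. Git2 itself read -1.10 and -1.13. Def6, a Rac and Cdc42 exchange factor of T cells, read -1.08 and -1.41, and Diap1 -1.33 and -1.06. The last, Rhof, was not well above background in either deficient pool and is counted by its measured ratio. Def6 had another probe at 0.31 with Foxp3Cre and Arhgef7 one at -0.01 with Cd4Cre. The highest mean was that of Rhoc, a close relative of RhoA, at 0.87. In all 4 lists together, 12 of 93 genes were lower on both arrays, beside 4.56% of 14419 gene names, and 2 were higher, beside 1.34%; under centring, 3 of these 12, Arhgef1, Arhgef7 and Rhof, stayed past 2-fold lower on both arrays. The other 9 did not, although all kept their sign: Hmha1 came to -0.94 and -0.96, Flna to -0.28 and -0.22, and Wasf2 to -0.06 and -0.19.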

How the data were processed

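Gene expression in sorted Tregs was measured on 2 two-colour arrays of one Agilent mouse design with 60-base probes, per the labels with Kreatech ULS labelling of amplified RNA. Per the file headers, images were read by Feature Extraction 10.5.1.1 (Cd4Cre array) and 10.7.3.1 (Foxp3Cre array); the submitters' processing notes name 10.5.1. The authors deposited the mean and background intensity of every spot and a log10 ratio of Cy5 over Cy3 computed by the scanner software, with its error. The deposited value table equals this log10 ratio (largest difference 0).

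In limma 3.58.1 (R 4.3.3), normexp with an offset of 50 removed the background from the intensities, and a loess fit on each array, in which control spots had weight 0, gave log2 ratios; channel levels were then scaled by Aquantile. Member and list values were drawn together in Python 3.11.15 with pandas 2.3.3. Spots marked as outliers (137 and 155 of 43379) were left out, spots of a probe were averaged, and 0 were saturated. Detection meant signal well above background in 1 or both channels. Of the spots, 21773 in the deficient pool and 24439 in the wild-type pool of the Cd4Cre array, and 20689 and 23446 on the Foxp3Cre array, were well above background. The SD of repeat spots of a probe was 0.056 and 0.071 on the log2 scale (245 probes); it covers spot error only, and the number of arrays limits the precision. A fold against a channel not well above background is a bound, computed from that array's lowest signal well above background or the probe's own where higher. Where the probe's own signal is used, the bound equals the measured ratio. Such bounds leave out the scanner error. The steps were tested on simulated data.

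Named are every probe of the 10 members, pathway genes at least 2-fold in one direction on both arrays, and the highest and lowest mean of each list. The highest mean of the DOCK and ELMO list is not reported here. The members, lists and thresholds were chosen with earlier results of these data known. RefSeq names (GRCm38.p6) were used for synonyms only; coordinates (mm9) and probe sequences are those of the files. Alternatives were no background subtraction, offset 10, median centring, the scanner software's ratio, outlier spots kept, and signal required in both channels.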

Additional observations from a re-analysis of the deposited data

Results flagged for a closer look

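Several probes read to opposite sides of 0 on the 2 arrays; with 1 array each, these differences were not tested. Of the probes below, only Dock8 probe 1 and Dock11 probe 2 lay further from 0 than their scanner error on both arrays. The others lay within that error of 0 on at least 1 array. As the Foxp3Cre minus the Cd4Cre log2 ratio, Dock8 probe 1 differed by -1.62 and Dock8 probe 3, near background, by 0.11. Dock11 probes 2 and 3 differed by 0.74 and 0.72, both at or above 0 on the Foxp3Cre array and below 0 on the Cd4Cre array. Coro1a probe 2 differed by -0.76, Rac2 probe 2 by -0.39 and Arhgdib by 0.21; under centring these 3 read above 0 on both arrays.

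A probe of another name, annotated to a cDNA clone, lies on the strand of Dock11 between its probes 1 and 2, at chrX:33589508-33589567 (mm9). It read -0.30 ± 0.21 (scanner error) on the Cd4Cre array, with levels of 10.53 in the deficient pool against 10.83 in the wild-type pool. This Cd4Cre ratio lay close to the -0.29 of Dock11 probe 2 and apart from the -0.93 of clone probe 1 and the -0.69 of probe 3. On the Foxp3Cre array the probe read -1.36 ± 0.25, with levels of 9.18 against 10.55. There it was close to the -1.31 of Dock11 clone probe 1 and apart from the 0.45 and 0.03 of probes 2 and 3, so its nearest Dock11 probe differed between the arrays. It was seen in data outside the named probes, and no test was made.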

How the results depend on the processing

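Of the 52 ratios (26 probes on 2 arrays), all stayed within their scanner error without background subtraction, with offset 10 and with marked spots kept. The scanner software's ratio moved 11 by more than that error, and median centring moved 30. With centring, 4 member probes were past 2-fold higher with Cd4Cre and 2 with Foxp3Cre, against 0 with loess. Under centring 3 read lower on both arrays, against 5. The share of all detected probes past 2-fold was not computed under centring, so nothing is read from these counts. Among pathway genes, centring gave 10 lower and 20 higher on the Cd4Cre array, against 18 and 5 with loess. On the Foxp3Cre array it gave 8 lower and 15 higher, against 30 and 2. The scanner software's ratio gave 21 lower and 7 higher on the Cd4Cre array and 27 lower and 2 higher on the Foxp3Cre array. Of all probes past 2-fold, the higher ones made up 51.0% with loess, 64.6% with centring and 43.3% with the scanner ratio on the Cd4Cre array, and 20.5%, 60.7% and 35.4% on the Foxp3Cre array. Requiring signal in both channels left 45 ratios and took the range of Dock8 probes on the Foxp3Cre array to 1.61, against 2.57, since the dim probes dropped out. No paired analysis was possible because each Cre system has 1 array, and for the same reason no array could be left out.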

Other observations

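The wild-type pools themselves differed between the arrays for these genes. Over the 25 member probes detected on both arrays, the wild-type level was lower on the Foxp3Cre array in 19, with differences (Foxp3Cre minus Cd4Cre array) from -1.52 to 1.21 and a median of -0.36; over all probes detected on both arrays the median was 0.06, with 46.2% lower. The extremes were the second Dock2 probe and Dock11 probe 2. Array, sort and control mice differ together here and cannot be told apart.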
